A study of Homo sapiens with 6 samples.

Results

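The genes described here are 52 genes of the mitotic spindle and of chromosome segregation, out of 56305 gene symbols counted in MOLM13 cells. The members were chosen by name, as genes with known roles in mitosis, and all 52 were found. MOLM13 is an established human acute myeloid leukemia line whose labels give an internal tandem duplication of FLT3 and a translocation between chromosomes 9 and 11, and both treatment groups share these lesions. A single line was used, with DMSO alone in 3 libraries or with 1 µM ZW27941 in the other 3, each for 24 h. ZW27941 is a PROTAC, a molecule that ties its target protein to a ubiquitin ligase, and it was made against METTL3, the catalytic subunit of the m6A RNA methyltransferase. The design puts one question to these genes, namely whether their transcripts differed between treated and vehicle-treated cells.

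Mitosis is driven by CDK1 bound to cyclin B, and then by the Polo-like and Aurora kinases. Spindle microtubules, kinesin motors and condensins shape and move the chromosomes, while kinetochores join centromeres to microtubules. The spindle checkpoint holds back the anaphase-promoting complex or cyclosome (APC/C), a ubiquitin ligase that destroys securin and cyclin B once every chromosome is attached. Transcripts of these genes are low in G1 and peak in G2 and mitosis, so proliferating leukemia cells carry them at high levels. In bulk RNA, a change in the number of cells in G2 and mitosis cannot be told apart from a change in RNA per cell. By flow cytometry of MOLM13 cells at this dose and time, the study reported a larger G0/G1 share and a smaller G2/M share. The part of cell cycle phase in the values below was not tested.

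Gene counts ran from 143454176 to 153825333 per library on DMSO and from 143621822 to 178744976 on ZW27941. ZW27941 replicate 3 stood apart from the other libraries. Reads aligned to several places made up 5.25% of its total, against 3.63% to 4.07% in the other 5 libraries. Its counts differed from those of the other ZW27941 libraries by a chi-square per degree of freedom of 11.7 and 7.93, where all other replicate pairs gave 4.37 to 5.19. Member counts are therefore given with and without it. All 8 myeloid markers checked (CD33, FLT3, HOXA9, MEIS1, SPI1, CEBPA, LYZ and PTPRC) were expressed. Their summed level was 2735 to 2808 CPM (counts per 1e6 gene counts) on DMSO and 3001 to 3072 CPM on ZW27941. LYZ had the largest rise in CPM, from a mean of 963 on DMSO to 1160 on ZW27941. The means of FLT3, HOXA9 and MEIS1 were lower on ZW27941, and those of the other myeloid markers were higher. Of 8 markers of other cell types, CD3E, MS4A1, HBB and EPCAM together stayed at 0.0832 CPM or less in every library. The summed level of all 8 was 269 to 279 CPM on DMSO and 335 to 343 CPM on ZW27941, nearly all of it PECAM1, which myeloid cells also express. Without PECAM1 the sum was 14.2 to 14.4 CPM on DMSO and 11.3 to 12.0 CPM on ZW27941, most of it KRT18. The part of these markers in the results was not tested.

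Many mitotic transcripts were higher on ZW27941, each by a small amount. Of the 52 members, 29 were higher on ZW27941 at an adjusted p under 0.05 (quasi-likelihood test of edgeR, Benjamini-Hochberg over all genes tested), none was lower, and 23 did not pass. Among all 20399 genes tested, 16.3% were called higher and 13.8% lower, and among the 9383 genes at or above the level of the lowest member 25.7% were higher and 20.3% were lower. Before adjustment, 30 members were higher and 3 lower at p under 0.05, and DESeq2 called 28 higher and 2 lower. With ZW27941 replicate 3 left out, 25 members were higher and 1, BUB3, was lower. The ZW27941 libraries all lay above the DMSO libraries for 32 members (21.7% of all genes) and below them for 3 (19.9% of all genes), and they overlapped for 17. The median log2 fold change of the members was 0.079, with a range from -0.096 to 0.35, while the median over all genes tested was -0.0019. Together the members took 0.632%, 0.625% and 0.632% of gene counts in the DMSO libraries. They took 0.691%, 0.689% and 0.675% in the ZW27941 libraries, so the 2 groups did not overlap.

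**Figure D1:**
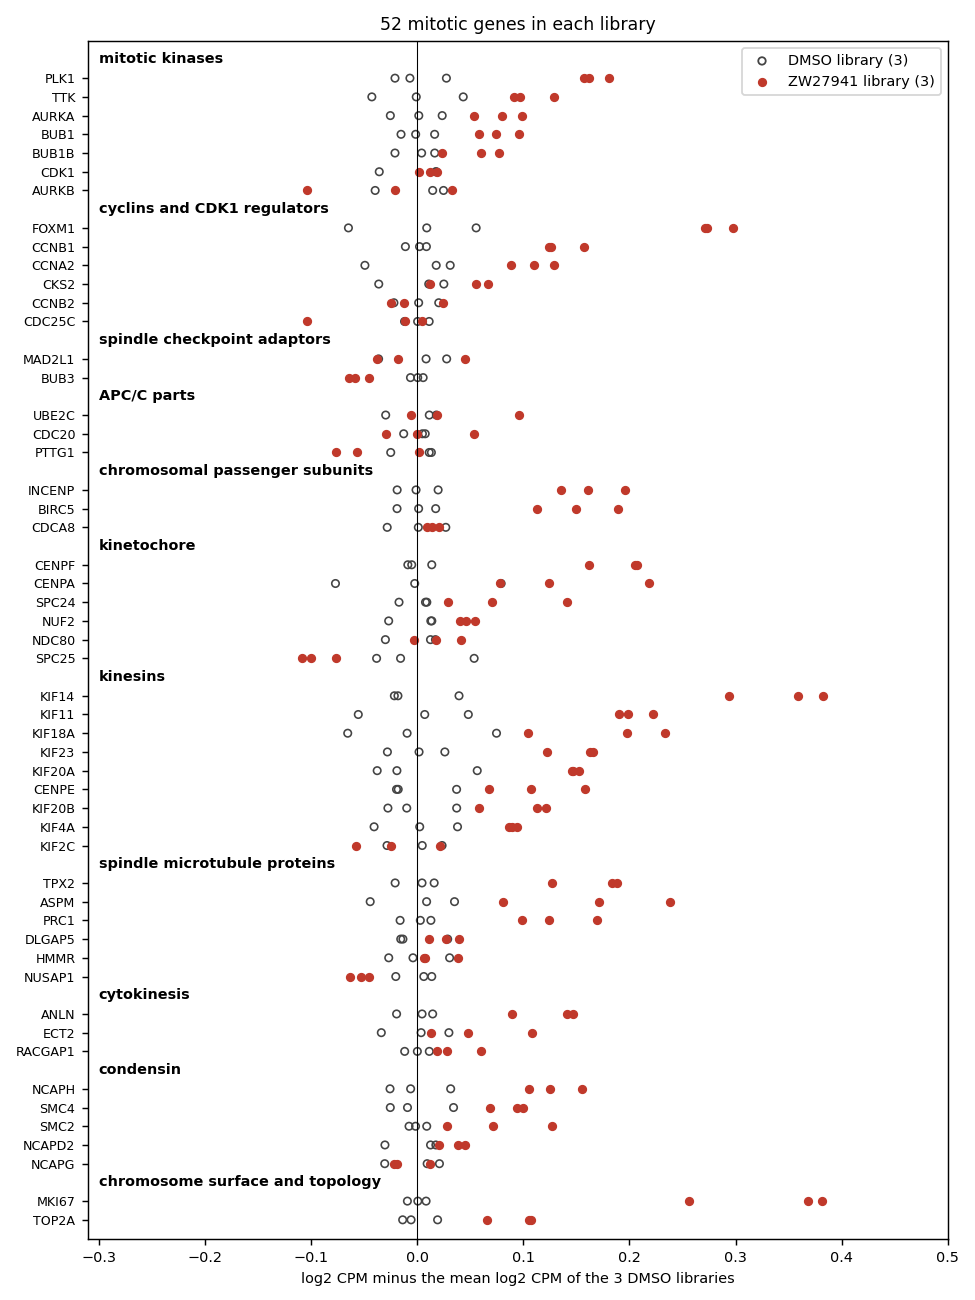
Level of each of the 52 members in each library, as log2 CPM minus the mean log2 CPM of the 3 DMSO libraries, ordered by role. Open circles are DMSO libraries and filled circles ZW27941 libraries. For 32 members all filled circles lie to the right of all open circles, and for BUB3, SPC25 and NUSAP1 all lie to the left.

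The promoters of these genes are known for 2 sequence elements. The cell cycle genes homology region (CHR), searched as TTTGAA, is bound by the MuvB complexes that repress these genes in G1 and activate them later with B-MYB and FOXM1. The CCAAT box, searched as CCAAT, is bound by NF-Y. A RefSeq promoter (GRCh38.p14) running from 250 bases before to 50 bases after the start was found for 44 of the 52 members, all but AURKA, TTK, FOXM1, BUB3, UBE2C, BIRC5, TPX2 and RACGAP1. On either strand, a CHR was present in 33 of them (75.0%), against 15.4% of all 27305 promoters and 10.2% of the 10748 promoters of genes tested here. A CCAAT box was present in 34 (77.3%), against 35.7% of all promoters and 36.5% of those tested, and 26 (59.1%) held both, against 6.08% and 4.24%. An E2F motif, searched as TTCGCGC or TTGGCGC, was present in 7 (15.9%), against 5.18% and 8.20%. The second E2F form shares TTGG with a CCAAT box on the other strand, so these matches can overlap.

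**Figure D2:**
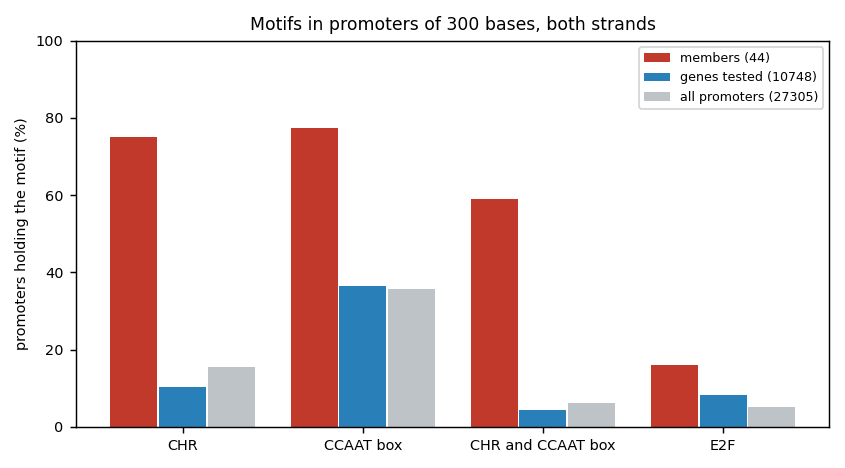
Share of promoters (%) that hold a CHR, a CCAAT box, both, or an E2F motif, for 44 members, 10748 promoters of genes tested and all 27305 promoters. The CHR was found in 75.0% of the members' promoters and in 10.2% of those of genes tested.

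The 150 bases before the start are shown for 3 members that rose (PLK1, KIF11 and MKI67) and 3 that did not pass the test (CCNB2, CDC20 and HMMR), because both sets carry the same pair of elements. They were picked after their values were seen. Capitals mark each CHR and CCAAT box on either strand, and touching or overlapping motifs run together. The stretches are at chr16:23678739-23678888 (plus strand), chr10:92592980-92593129 (plus strand), chr10:128126424-128126573 (minus strand), chr15:59104996-59105145 (plus strand), chr1:43358831-43358980 (plus strand) and chr5:163460482-163460631 (plus strand), all written along the strand of the gene.
PLK1: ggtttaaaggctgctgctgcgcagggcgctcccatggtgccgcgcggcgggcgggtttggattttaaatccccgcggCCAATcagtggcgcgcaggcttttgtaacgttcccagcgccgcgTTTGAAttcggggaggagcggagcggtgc
KIF11: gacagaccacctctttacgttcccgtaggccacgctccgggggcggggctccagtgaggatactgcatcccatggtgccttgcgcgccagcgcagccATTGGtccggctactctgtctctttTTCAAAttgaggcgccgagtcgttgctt
MKI67: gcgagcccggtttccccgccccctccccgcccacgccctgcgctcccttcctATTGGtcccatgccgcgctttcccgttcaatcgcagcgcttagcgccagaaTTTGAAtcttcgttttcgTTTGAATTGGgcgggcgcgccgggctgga
CCNB2: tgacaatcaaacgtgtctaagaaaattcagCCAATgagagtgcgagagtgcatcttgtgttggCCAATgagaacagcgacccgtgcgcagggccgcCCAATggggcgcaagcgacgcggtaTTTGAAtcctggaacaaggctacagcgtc
CDC20: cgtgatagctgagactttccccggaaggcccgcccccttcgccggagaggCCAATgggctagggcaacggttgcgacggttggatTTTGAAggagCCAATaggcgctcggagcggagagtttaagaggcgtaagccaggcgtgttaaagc
HMMR: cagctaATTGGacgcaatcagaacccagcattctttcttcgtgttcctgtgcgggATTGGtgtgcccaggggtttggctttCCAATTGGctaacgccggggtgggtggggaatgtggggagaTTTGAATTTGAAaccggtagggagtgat
The calls were then set against both elements, with no test. Of the 33 members with a CHR, 17 were called higher, with a median log2 fold change of 0.076. Of the 11 without a CHR, 7 were called higher, with a median of 0.081. Of the 34 members with a CCAAT box, 20 were called higher, with a median of 0.091, and of the 10 without one 4, with a median of 0.050. Of the 3 members with neither element 1 was called higher, and their median was -0.020. Among genes tested that are not members, 23.1% of 1067 with a CHR were called higher and 20.7% of 9637 without one. For the CCAAT box, 20.3% of 3889 such genes with one were called higher and 21.3% of 6815 without one.

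Among the 7 mitotic kinases, 4 were higher and 3 did not pass, with a median log2 fold change of 0.076. PLK1, the Polo-like kinase of mitotic entry and spindle assembly, was measured at 117, 120.2 and 116 CPM in the DMSO libraries and 132, 132 and 134 CPM in the ZW27941 libraries. All 3 ZW27941 libraries were above all DMSO libraries, a log2 fold change of 0.17 ± 0.0245 (SE, adjusted p = 2.22e-05). TTK, the checkpoint kinase also known as MPS1, stood at 49.8, 48.4 and 51.3 CPM in the DMSO libraries and 53.3, 53.1 and 54.5 CPM in the ZW27941 libraries. These groups did not overlap either, at 0.11 ± 0.0286 (adjusted p = 0.00713), although without DMSO replicate 2 the adjusted p was 0.0516. AURKA, which acts at the spindle poles, and BUB1, a checkpoint kinase of the kinetochore, rose by 0.077 and 0.076 on the log2 scale. Both calls were lost when DMSO replicate 2 or 3 or ZW27941 replicate 2 or 3 was left out (adjusted p of 0.0674 to 0.137 for AURKA and 0.0601 to 0.0824 for BUB1). Upper quartile normalization also ended both calls, and the replicate number as a block ended that of AURKA. The central kinase itself did not pass the test: CDK1 gave 0.011, with a 95% confidence interval of -0.041 to 0.063. The interval was -0.097 to 0.037 for AURKB, the kinase of the chromosomal passenger complex, and 0.00072 to 0.11 for BUB1B, the checkpoint protein BUBR1.

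Cyclins and CDK1 regulators split evenly, with 3 of 6 higher and a median log2 fold change of 0.077. FOXM1, the transcription factor of G2 and M genes, was found at 74.4, 72.0 and 68.4 CPM in the DMSO libraries and 86.5, 86.4 and 88.0 CPM in the ZW27941 libraries. Every ZW27941 library exceeded every DMSO library, and the log2 fold change was 0.28 ± 0.0289 (adjusted p = 2.45e-07). CCNB1, the main cyclin partner of CDK1 in mitosis, was counted at 85.3, 84.2 and 84.9 CPM in the DMSO libraries and 92.5, 92.6 and 94.6 CPM in the ZW27941 libraries. Its groups were also apart, at 0.14 ± 0.0247 (adjusted p = 0.000224). CCNA2, the cyclin of S phase and G2, rose by 0.11. The second B-type cyclin, CCNB2, gave -0.0042 with an interval of -0.059 to 0.051, so a rise of the size seen for CCNB1 lay outside it. CKS2, the small subunit that helps CDK1 bind its substrates, gave 0.044. CDC25C, the phosphatase that activates CDK1, gave -0.037 (interval -0.13 to 0.059).

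Neither of the 2 spindle checkpoint adaptors passed the test. BUB3, the WD-repeat protein that carries BUB1 and BUBR1 to the kinetochore, was at 343, 345 and 346 CPM in the DMSO libraries and 331, 329 and 334 CPM in the ZW27941 libraries. All ZW27941 libraries were below all DMSO libraries, but the difference of -0.056 ± 0.0232 missed the threshold (adjusted p = 0.0762). Under DESeq2 the adjusted p of BUB3 was 0.0146 and without ZW27941 replicate 3 it was 0.0346, both past the threshold. MAD2L1, the checkpoint protein MAD2 that blocks CDC20, was at 73.8, 70.6 and 72.9 CPM in the DMSO libraries and 71.5, 70.6 and 74.7 CPM in the ZW27941 libraries, with overlapping groups and a difference of -0.0035 ± 0.0282 (adjusted p = 0.94).

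None of the 3 genes grouped here as APC/C parts moved past the threshold, and their median log2 fold change was 0.0082. The group holds CDC20, UBE2C and PTTG1, and PTTG1 is a target that the APC/C destroys rather than a part of it. The median turned to -0.017 when ZW27941 replicate 3 was left out and to -0.015 with upper quartile normalization. PTTG1, the securin that restrains separase, was measured at 43.5, 44.7 and 44.6 CPM in the DMSO libraries and 42.0, 42.6 and 44.3 CPM in the ZW27941 libraries. UBE2C, the ubiquitin-conjugating enzyme of the APC/C, was measured at 62.7, 63.0 and 60.9 CPM in the DMSO libraries and 61.9, 63.0 and 66.5 CPM in the ZW27941 libraries. The groups overlapped for both, at -0.043 ± 0.0292 for PTTG1 (adjusted p = 0.288) and 0.037 ± 0.0292 for UBE2C (adjusted p = 0.379). CDC20, the activator that the checkpoint inhibits, gave 0.0082 with an interval of -0.048 to 0.064. Its promoter holds a CHR and CCAAT boxes, as that of PLK1 does.

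Of the 3 chromosomal passenger subunits, which place Aurora B on centromeres and the midzone, 2 were higher. INCENP, the scaffold, was at 109, 111 and 108 CPM in the DMSO libraries and 125, 122 and 120.2 CPM in the ZW27941 libraries. BIRC5, the centromere-binding subunit survivin, was at 78.0, 76.0 and 77.1 CPM in the DMSO libraries and 83.3, 85.4 and 87.8 CPM in the ZW27941 libraries. For both genes the ZW27941 libraries lay wholly above the DMSO libraries, with log2 fold changes of 0.16 ± 0.0253 for INCENP (adjusted p = 3.68e-05) and 0.15 ± 0.0266 for BIRC5 (adjusted p = 0.000163). The third subunit, CDCA8 or borealin, gave 0.014 with an interval of -0.042 to 0.071. The catalytic partner AURKB, described with the kinases, did not pass either, so the 4 proteins of this complex did not share a called rise.

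Kinetochore members were mixed, with 3 of 6 higher and a median of 0.064. CENPF, a large protein of the outer kinetochore, was at 389, 388 and 394 CPM in the DMSO libraries and 451, 450.3 and 437 CPM in the ZW27941 libraries. The 2 groups were far apart relative to their spread, at 0.19 ± 0.0242 (adjusted p = 3.36e-06). CENPA, the histone H3 variant that marks centromeres, was at 15.5, 14.7 and 13.9 CPM in the DMSO libraries and 16.0, 15.5 and 17.1 CPM in the ZW27941 libraries. Here the libraries overlapped, the difference was 0.14 ± 0.0442 (adjusted p = 0.0189), and the call was lost without DMSO replicate 2 or 3 or ZW27941 replicate 3 (adjusted p of 0.0678 to 0.139). The NDC80 complex, which grips the microtubule, has 4 subunits, and the fold changes of NDC80 and NUF2 were 0.018 and 0.047, neither called. SPC24 was called at 0.081 (adjusted p = 0.0495), at the edge of the threshold, and lost the call in 11 of 16 alternatives, 5 of them with a library left out (adjusted p of 0.0845 to 0.265 without any 1 DMSO library or ZW27941 replicate 2 or 3). Its direct partner SPC25 had the lowest fold change of all members, -0.096 ± 0.0381 (adjusted p = 0.063), and its libraries were lower on ZW27941 without overlap.

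Among role groups of more than 2 genes, kinesins had the largest share called, with 8 of 9 higher and a median log2 fold change of 0.15. KIF14, a kinesin of the midbody, had the largest fold change of all members. It was at 97.7, 93.8 and 93.6 CPM in the DMSO libraries and 124, 122 and 116 CPM in the ZW27941 libraries, groups that did not overlap, and the difference was 0.35 ± 0.0278 (adjusted p = 7.07e-09). KIF11 or Eg5, the motor that pushes spindle poles apart, was at 112, 107 and 115 CPM in the DMSO libraries and 129.8, 128 and 127 CPM in the ZW27941 libraries. Its lowest ZW27941 library was above its highest DMSO library, and the difference was 0.20 ± 0.0272 (adjusted p = 6.95e-06). KIF18A, which dampens chromosome movements at the metaphase plate, rose by 0.18. The cytokinesis motors KIF23 and KIF20A rose by 0.15 and 0.15, and their relative KIF20B by 0.098. CENPE, the motor that carries chromosomes to the plate, rose by 0.11, and the chromosome-bound KIF4A by 0.090. KIF4A lost its call without DMSO replicate 1 (adjusted p = 0.094). The exception was KIF2C or MCAK, a motor that takes microtubules apart and does not walk, at -0.020 with an interval of -0.075 to 0.036.

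The medians of the role groups can be set against each other within each library. The median of the kinesins minus that of the APC/C parts, both as log2 CPM relative to the DMSO mean, was -0.023, -0.023 and 0.017 in the DMSO libraries. It was 0.15, 0.16 and 0.051 in the ZW27941 libraries, so these libraries were all above the DMSO libraries. For kinesins minus condensins the DMSO libraries gave -0.027, 0.015 and -0.013 and the ZW27941 libraries 0.029, 0.087 and 0.077, again without overlap. Kinesins minus kinases gave -0.034, -0.011 and 0.026 on DMSO and 0.065, 0.081 and 0.0086 on ZW27941, which overlap. Kinesins minus kinetochore genes gave -0.033, 0.0024 and 0.0070 on DMSO and 0.088, 0.099 and 0.0070 on ZW27941, with ZW27941 replicate 3 again near the DMSO values. These are descriptions of group medians, and no test was made on them.

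**Figure D3:**
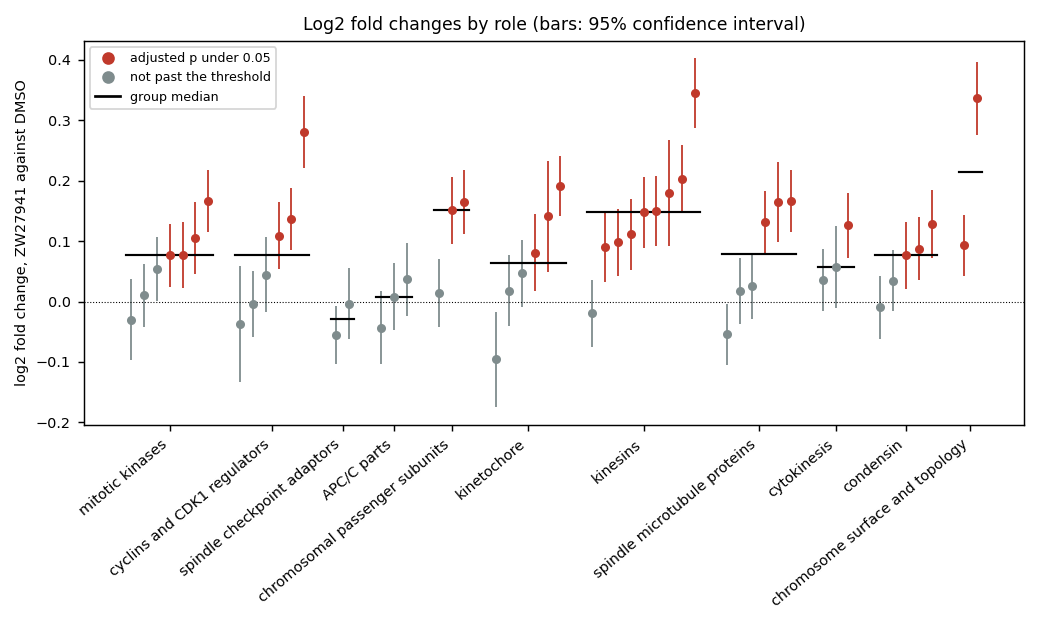
Log2 fold change (ZW27941 against DMSO, 3 libraries each) of each member by role, with its 95% confidence interval from the edgeR fit and a line at the median of each group. Members past the threshold are in red, 8 of them among the 9 kinesins and none among the APC/C parts.

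Spindle microtubule proteins were split, with 3 of 6 higher and a median of 0.078. TPX2, which activates Aurora A and nucleates microtubules near chromatin, was at 182, 185 and 186 CPM in the DMSO libraries and 201, 209 and 209.8 CPM in the ZW27941 libraries. PRC1, which bundles antiparallel microtubules in the midzone, was at 118, 121 and 120.0 CPM in the DMSO libraries and 128, 130.4 and 135 CPM in the ZW27941 libraries. Neither gene's groups overlapped, and the differences were 0.17 ± 0.0249 for TPX2 (adjusted p = 2.66e-05) and 0.13 ± 0.0255 for PRC1 (adjusted p = 0.000445). ASPM, which focuses spindle poles, rose by 0.16. DLGAP5 or HURP, a stabilizer of kinetochore fibres, gave 0.026, and HMMR, a spindle protein and hyaluronan receptor, gave 0.017. NUSAP1, which links microtubules to chromatin, had lower values in all ZW27941 libraries at -0.054 ± 0.024 and missed the threshold (adjusted p = 0.0947), which it passed under DESeq2, upper quartile normalization and the removal of GC and length trends.

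For cytokinesis, 1 of 3 members was higher. ANLN or anillin, the scaffold of the contractile ring, was at 92.9, 90.8 and 92.3 CPM in the DMSO libraries and 102, 101 and 97.9 CPM in the ZW27941 libraries, with no overlap and a difference of 0.13 ± 0.0256 (adjusted p = 0.000682). ECT2, the exchange factor that activates RhoA at the cell equator, was at 28.9, 28.2 and 29.4 CPM in the DMSO libraries and 31.1, 29.1 and 29.8 CPM in the ZW27941 libraries, with overlapping groups and a difference of 0.057 ± 0.0324 (adjusted p = 0.20). RACGAP1, which pairs with the kinesin KIF23 in centralspindlin, gave 0.036 (interval -0.016 to 0.087), while KIF23 itself was among the risers.

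Condensin, the ring that compacts mitotic chromosomes, had 3 of 5 members higher and a median of 0.076. NCAPH, the kleisin subunit, was at 58.3, 56.0 and 56.8 CPM in the DMSO libraries and 62.2, 61.3 and 63.5 CPM in the ZW27941 libraries, without overlap and at 0.13 ± 0.0271 (adjusted p = 0.000951). SMC4, an ATPase arm of the ring, had the highest level per length of all members, 142 CPM per kilobase of its longest transcript in DMSO. Its libraries were at 771, 763 and 795 CPM in the DMSO libraries and 828, 832 and 814 CPM in the ZW27941 libraries, also apart, with a difference of 0.087 ± 0.0251 (adjusted p = 0.011). The call for SMC4 was lost without DMSO replicate 2 or ZW27941 replicate 2 (adjusted p of 0.068 to 0.0789). The other arm, SMC2, rose by 0.076, and lost its call when any library other than ZW27941 replicate 3 was left out (adjusted p of 0.0601 to 0.214). The HEAT-repeat subunits NCAPD2 and NCAPG gave 0.035 and -0.0097 and were not called.

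Both members of the chromosome surface and topology group rose. MKI67, the Ki-67 protein that coats mitotic chromosomes and is used to mark cycling cells, was at 532, 526 and 529 CPM in the DMSO libraries and 683, 689 and 632 CPM in the ZW27941 libraries. TOP2A, the topoisomerase that untangles sister chromatids, was at 555, 552 and 565 CPM in the DMSO libraries and 599.7, 600.4 and 583 CPM in the ZW27941 libraries. The ZW27941 libraries of both genes were above the DMSO libraries, with ZW27941 replicate 3 the lowest of its group. The differences were 0.34 ± 0.029 for MKI67 (adjusted p = 2.06e-08) and 0.093 ± 0.0244 for TOP2A (adjusted p = 0.00568).

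The calls were also set against coding length, which the choice of members did not use, as a description with no test. The members were split at the middle by their longest coding length in GENCODE v29, after their values had been seen. Of the 26 with the longer coding sequences (2223 to 10431 bases), 21 were called higher, with a median log2 fold change of 0.12. Of the 26 shorter ones (237 to 2175 bases), 8 were called higher, with a median of 0.018. The longer set includes ASPM, MKI67, CENPF, CENPE, KIF14 and the condensin arms. The shorter set includes all 3 APC/C parts, both checkpoint adaptors and the small kinetochore subunits. Its members called higher were PLK1, CCNB1, CCNA2, BIRC5, PRC1, AURKA and the kinetochore genes CENPA and SPC24. In the longer set BUB1B, DLGAP5, ECT2, NCAPG and NCAPD2 were not called. All 8 called kinesins were in the longer set, while KIF2C was in the shorter set with the 3 APC/C parts. The length split and the contrast of kinesins with APC/C parts thus fall largely on the same genes and were not told apart. Across the 52 members, log2 fold change and log10 coding length had a Pearson r of 0.49 and a Spearman rho of 0.47, a description over genes that share the same 6 libraries. Against GC content of the transcript, r was 0.050, and against log2 CPM it was 0.25.

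The same split was applied to the other genes. Among the other 8876 genes at or above the level of the lowest member with a coding length, 23.8% of 2355 with at least 2223 coding bases were called higher and 26.4% of 6521 shorter ones, and r was 0.020. Among the 123 other mitosis genes described next, 44.2% of 43 longer and 35.0% of 80 shorter genes were called higher, and r was 0.16. By library, the longer members had a median of 0.12, 0.13 and 0.095 in the ZW27941 libraries relative to DMSO on the log2 scale. The shorter members had 0.0043, 0.019 and 0.049. In ZW27941 replicate 3 the sets were thus nearest to each other. Without that library the longer set had 20 members higher and the shorter set 5. With trends on GC content and transcript length removed from each library, the longer set had 21 members higher and the shorter set 10, with 2 lower. That setting could be fitted on 79.0% of genes, under the 80% set as a minimum. The part of length in the calls was not tested.

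**Figure D4:**
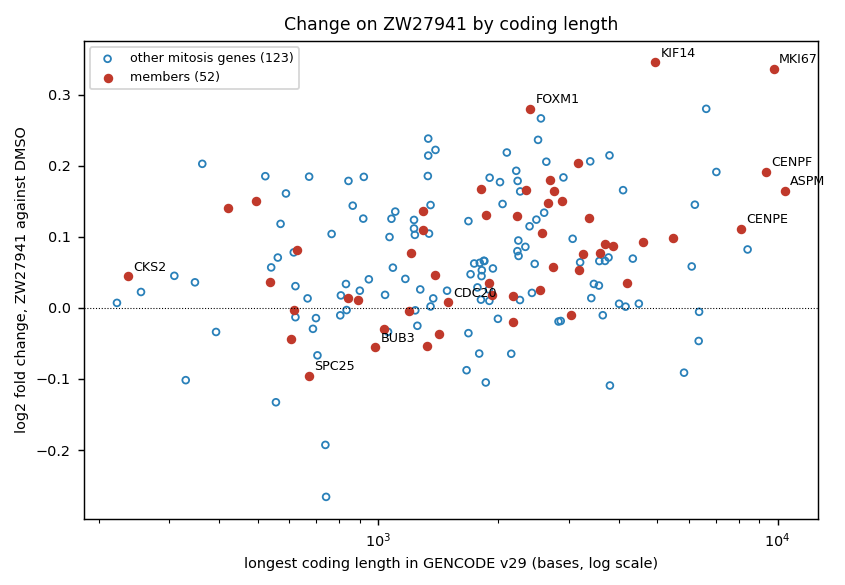
Log2 fold change (ZW27941 against DMSO) against the longest coding length in bases on a log axis, for the 52 members and 123 other mitosis genes. The members with the highest values, KIF14 and MKI67, and the 4 with the longest coding sequences all lie above 0.

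A wider list of 123 other mitosis genes, written by name and split into 9 roles, was measured in the same fit. Of these, 47 were higher (38.2%), 7 lower and 69 not called, with a median log2 fold change of 0.058, beside 16.3% higher and 13.8% lower over all genes tested and 25.7% and 20.3% at or above the members' level. In the list's cytokinesis genes 6 of 6 were higher, led by CEP55, the midbody organizer (44.8 ± 0.471 to 52.2 ± 0.596 CPM, mean ± SD, n = 3, log2 fold change 0.22), and CHMP4B, an ESCRT-III filament subunit (0.18). Among kinesins outside the members 3 of 6 were higher, led by KIF18B (0.27), a motor at microtubule plus ends, and KIFC1 (0.18), the minus-end motor that clusters spindle poles. Of 22 other spindle and centrosome genes 9 were higher, led by TUBB4B, a beta-tubulin whose paralogs can share reads (0.24), and TACC3, which crosslinks kinetochore fibres (0.24).

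Other kinases and phosphatases had 5 of 11 higher and 1 lower, led by the centrosome kinase NEK2 (0.21) and the Greatwall kinase MASTL (0.21). The lower gene, PPP2R5C, a phosphatase regulatory subunit named after its value was seen, stood at -0.088 and lost its call without DMSO replicate 1 or 3 or ZW27941 replicate 3 (adjusted p of 0.0669 to 0.13). Other kinetochore and centromere genes had 12 of 32 higher and 1 lower. KNTC1, a subunit of the checkpoint complex RZZ, changed from 212 ± 3.29 to 257 ± 5.03 CPM (mean ± SD, n = 3), a log2 fold change of 0.28. The single lower gene in that group, CENPH of the inner kinetochore, was named after its value was seen, and its level went from 32.5 ± 0.14 to 27.1 ± 1.31 CPM (-0.27 on the log2 scale). Cohesin and its regulators had 6 of 13 higher and 1 lower, led by SGO2, the shugoshin that protects centromeric cohesin (0.21), and CDCA5 or sororin (0.18), and the lower gene, named in the same way, was the cohesin subunit STAG2 (-0.11).

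The list's APC/C genes were core subunits, an activator, a ubiquitin-conjugating enzyme and an inhibitor. Of these 17 genes, 4 were higher (23.5%), 4 lower and 9 not called, with a median of 0.021. Both shares were near those over all genes at or above the members' level (25.7% higher and 20.3% lower). ANAPC11, the RING subunit, rose by 0.16 and CDC27, a scaffold subunit, by 0.12. The lower genes, named after their values were seen, were the subunits CDC16 (-0.10), ANAPC16 (-0.10), ANAPC1 (-0.091) and ANAPC10 (-0.13). ANAPC1 lost its call without DMSO replicate 1 or 3 or ZW27941 replicate 2 (adjusted p of 0.0501 to 0.0761), and ANAPC10 without any library but ZW27941 replicate 3 (adjusted p of 0.0551 to 0.103). None of the 3 condensin II subunits was called. Of 13 regulators of the DREAM and MuvB complexes 2 were higher. That share was 15.4%, against 16.3% of all genes tested and 25.7% of those at or above the members' level. The 2 were MYBL2 or B-MYB, the activator that works with MuvB, and TFDP1, the dimer partner of E2F proteins (0.11). MYBL2 went from 151 ± 2.90 to 176 ± 6.92 CPM (mean ± SD, n = 3), a log2 fold change of 0.22. MYBL2, like the member FOXM1, acts at the CHR with MuvB.

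Neighbouring genes and near copies limit a few of these values. The strand setting of the counting is not given in the sources used here, so reads where 2 genes overlap on opposite strands cannot be assigned with certainty. FOXM1 shares 781 of its 4899 exonic bases with ITFG2, which had 39.7% as many counts and fell by 0.11 on the log2 scale. CDC25C shares 293 of 3338 with FAM53C, which had 578% as many counts and gave 0.00031. CENPA shares 138 of 1983 with SLC35F6 on the same strand. SLC35F6 had 66.7% as many counts and gave 0.12, not called, beside 0.14 for CENPA. The part of this overlap in the CENPA call was not tested. Near copies of KIF4A, PTTG1, CDC20, UBE2C, NCAPG and AURKA each held under 1% of the counts of the member.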

How the data were processed

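RNA from MOLM13 cells was sequenced in 6 libraries, 3 per treatment. The authors deposited raw HTSeq 2.0.3 counts for each gene symbol, with no normalization. The submitters' processing notes also name HISAT2, SAMtools 1.19.2 and the build hg38. The annotation and strand setting are not given in the sources used here. The 5 HTSeq tallies (37.4% to 39.8% of all counts per library) were left out. Nothing in the labels says that replicates were separate cultures, so p-values measure the spread between these libraries, which may be technical.

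The 2 groups were compared by quasi-likelihood in edgeR 4.0.16 (R 4.3.3), after filterByExpr and TMM scaling (factors 0.994 to 1.01). Benjamini-Hochberg adjustment covered all 20399 genes tested, at a threshold of 0.05. CPM used the TMM factors. A fold change is that of ZW27941 over DMSO. The biological coefficient of variation was 3.11%. On simulated data for this comparison with 20399 genes, 70 of 100 genes changed by 0.2 on the log2 scale and 92 of 100 changed by 0.5 were recovered, with 7 false calls. Only 200 genes were changed in the simulation, against 6149 called in the data, and no change under 0.2 was simulated. The recovery of changes near the members' median of 0.079 was therefore not measured.

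Values in every library are given for the 2 members of each role with the lowest p and for the member with the highest CPM per kilobase. From the wider list, the 2 called genes with the lowest p were named per role. The members and lists were chosen with earlier results of these data known. Coding and transcript lengths were the longest per symbol in GENCODE v29, and promoters came from RefSeq. Protein motifs were not analysed here, and a few genes that these rules or lists name are not reported here. Alternatives were other normalizations, tests and filters, thinning to equal depth, removal of GC and length trends, a replicate block, the study's thresholds and leaving out each library. DESeq2 1.42.0 was used as an alternative.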

Additional observations from a re-analysis of the deposited data

How the results depend on the processing

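Of the 29 members called higher, 21 kept the call in all 16 alternatives, and none changed direction. The 16 include the removal of GC and length trends, which fell short of its own minimum. They do not include the study's thresholds, under which no member passed. The number of members higher was 22 to 28 with a library left out. With upper quartile normalization, 23 members were higher, the members' median was 0.056 and that of the APC/C parts turned to -0.015. That setting called 42.1% of all called genes higher, against 54.2% in the analysis as reported. Where none was lower as reported, 3 members were lower with upper quartile normalization (BUB3, SPC25 and NUSAP1), 2 with DESeq2 (BUB3 and NUSAP1), 2 with GC and length trends removed and 1 after thinning. Leaving out a library gave 0 to 1 members lower, a median of the APC/C parts of -0.017 to 0.027, and 4 to 8 genes of the wider list lower, a count that was 12 with upper quartile normalization. The cause of these shifts was not tested. With no filter and the limits of the study (a log2 fold change beyond 1 in either direction and p under 0.05, not adjusted), 759 genes and 0 members passed, since no member changed by that much. The study itself reported a much larger number of genes at these limits, so 759 is not its count. The cause of that difference was not tested.

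Replicate numbers are shared between groups, but nothing in the labels says that they pair the samples. The correlation of same-numbered libraries ran from -0.012 to 0.017, and that of other pairs from -0.032 to 0.021. These values show no strong effect shared by replicate number and cannot tell whether same-numbered samples were grown together. With the replicate number as a block, 27 members and 6010 genes were called, and AURKA and SPC24 lost their calls. The removal of trends could be fitted on 79.0% of genes, under the 80% set as a minimum, so its count over all genes is void. The depth allows small changes to be called, and 3 libraries per group limit what the p-values can show.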
